A study of Mus musculus with 4 samples.

Results

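BEKO is a mouse thymic lymphoma cell line of wild-type genotype, and its RNA was sequenced at low and at high cell density. There were 2 libraries in each group, low density libraries 1 and 2 and high density libraries 1 and 2. The labels give no cell number, medium, culture time or treatment for either density, and they do not state whether the 2 libraries of a density are separate cultures. The spread behind every p-value is thus that of single libraries and may be technical. This account follows 10 genes of actin filament control, of the 25630 rows of the deposited table: Gsn, Capg, Flii and Svil of the gelsolin family, the cofilins Cfl1 and Cfl2, the profilin Pfn1, the thymosins Tmsb4x and Tmsb10, and the β-actin gene Actb. They were taken by gene symbol and all 10 were found. The list was chosen by role with the TPM values and fold changes of these libraries already known, so the members' differences are given as a description and without p-values.

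Actin monomers assemble into filaments that grow mainly at one end, the barbed end. Gelsolin cuts filaments when calcium is present and stays on the new barbed end as a cap, cofilin cuts and disassembles older filaments, profilin loads monomers for growth and β-thymosins hold monomers in reserve. In T cells these proteins shape migration, the contact with target cells and the actin network below the T cell receptor.

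Values are TPM (transcripts per 1000000), a relative abundance scaled for transcript length and to a fixed total in each library. Sequencing depth is unknown. A log2 fold change is the high density mean minus the low density mean of log2(TPM + 1), with its standard error (SE) from the limma fit over all rows, and understates the change of weak genes. A fold without a log is a ratio of mean TPM, and means carry their SD with n = 2 libraries. A row was called when its limma p-value, adjusted over the 10936 rows whose mean reached 1 TPM, lay under 0.05. All 10 members passed that filter. A gene that was not called is not thereby shown to be equal at both densities. In bulk RNA, fewer cells of a type and less RNA per cell cannot be told apart.

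The libraries carried T lineage RNA. All 10 markers of that lineage were among the tested rows, with a summed level of 6823 to 7529 TPM in each library. Of these, 2 were called higher at high density, as were 4.57% of all tested rows. Trac stood at 14.4 and 13.4 TPM at low and at 84.8 and 116 TPM at high density. Trdc stood at 18.1 and 16.0 TPM at low and at 101 and 77.1 TPM at high density. Of 10 macrophage and monocyte markers, Lyz2, C1qa and Cd14 were listed at 0 in all libraries and the sum was 20.6 to 25.7 TPM, most of it Cd68 and Itgam. Of 9 fibroblast markers, Dcn and Lum were listed at 0 throughout, and the sum was 48.9 TPM in low density library 1, against 0.33 to 0.673 TPM in the other libraries. Endothelial markers summed to 63.2 and 52.7 TPM at low and 48.0 and 37.8 TPM at high density, nearly all of it Pecam1, with Cdh5 listed at 0. Platelet markers summed to 1.64 and 1.72 TPM at low and 3.37 and 4.94 TPM at high density, with Pf4, Ppbp and Gp9 listed at 0. Erythroid markers summed to 3.56 to 7.67 TPM, with 4 globin genes listed at 0. Epithelial, smooth muscle and B cell markers each summed to at most 1.3 TPM in every library. The median log2 fold change of all tested rows was 0.12, and the members' differences are to be read against that shift.

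Gsn was the member with the largest difference, and the windows around its annotated transcription starts are shown here because the table gives 1 value per gene and does not say from which start the RNA came. The RefSeq promoter table (build GRCm38.p6) holds 3 starts for Gsn on the plus strand, in windows of 250 bases before to 10 bases after each start: chr2:35256109-35256368, chr2:35266494-35266753 and chr2:35282130-35282389. Capitals mark the letters ACGTG or GCGTG, the core that hypoxia-inducible factors recognise, searched on both strands. The letters matched in the first window only, beginning 2 bases before the start.
Gsn start 1: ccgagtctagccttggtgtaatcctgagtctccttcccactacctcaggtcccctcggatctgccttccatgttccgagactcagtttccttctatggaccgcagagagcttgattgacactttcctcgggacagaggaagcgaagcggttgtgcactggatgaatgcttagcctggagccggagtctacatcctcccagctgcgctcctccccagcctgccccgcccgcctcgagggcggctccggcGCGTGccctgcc
Gsn start 2: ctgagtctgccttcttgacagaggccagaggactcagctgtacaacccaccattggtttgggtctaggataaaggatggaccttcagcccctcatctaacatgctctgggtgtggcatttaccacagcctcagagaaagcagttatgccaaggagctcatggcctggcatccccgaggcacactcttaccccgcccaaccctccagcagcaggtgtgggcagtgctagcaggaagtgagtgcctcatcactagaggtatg
Gsn start 3: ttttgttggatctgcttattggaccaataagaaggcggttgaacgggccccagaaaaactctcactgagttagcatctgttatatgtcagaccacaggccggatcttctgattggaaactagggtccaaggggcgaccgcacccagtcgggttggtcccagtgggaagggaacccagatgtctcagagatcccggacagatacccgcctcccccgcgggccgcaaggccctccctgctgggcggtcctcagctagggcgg
This core was held by 39.7% of the 32851 windows of the same length in the table, so its presence is common. Of the 8 members with an entry, 7 had it in at least 1 of their windows, Capg being without it. That count is of genes, some with 3 windows, and is not comparable with the share of windows, so nothing is read from it. Svil and Actb had no entry.

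Gelsolin RNA was far higher at high density. Gsn stood at 9.45 and 6.96 TPM in low density libraries 1 and 2, and at 233 and 92.6 TPM in high density libraries 1 and 2. Both high density libraries lay above both low density libraries, and the high density pair differed from each other by 2.52-fold. The means were 8.21 ± 1.76 and 163 ± 99.3 TPM, a 19.8-fold difference, which was 11.3-fold without high density library 1. The log2 fold change of 4.02 ± 0.38 (SE) was the 7th highest among the 10936 rows. Gsn moved from rank 8436 and 8739 of all rows in the low density libraries to rank 685 and 2562 in the high density libraries. Fibroblasts, macrophages and platelets are known to express Gsn. In high density libraries 1 and 2 the summed fibroblast markers were 0.33 and 0.673 TPM, the macrophage and monocyte markers 25.7 and 20.6 TPM and the platelet markers 3.37 and 4.94 TPM. Of the macrophage markers, Itgam stood higher at high density, at 16.1 and 12.1 TPM against 8.27 and 6.62 TPM at low density, and Cd68 lower, at 9.36 and 8.46 TPM against 14.9 and 17.7 TPM, and neither was called. The part of other cell types in the Gsn difference was not tested.

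Capg, which caps barbed ends but does not cut filaments, went the opposite way at a low level. It stood at 6.04 and 7.2 TPM in the low density libraries and at 2 and 1.33 TPM in the high density libraries, without overlap. The means were 6.62 ± 0.823 and 1.67 ± 0.474 TPM, 3.97-fold lower at high density, with a log2 fold change of −1.52 ± 0.36 (SE). Capg and Gsn were close together at low density, where their ranges overlapped, and Gsn exceeded Capg 116-fold and 69.5-fold in the high density libraries.

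The other family members did not separate the densities. Flii, the flightless homologue that joins gelsolin domains to leucine-rich repeats, stood at 91.8 and 78.6 TPM at low and at 92.8 and 82 TPM at high density. Svil, the membrane-bound supervillin that binds actin and myosin, stood at 54.9 and 44 TPM at low and at 37.3 and 49.8 TPM at high density. In both genes the groups overlapped, with log2 fold changes of 0.04 ± 0.24 and −0.19 ± 0.27 (SE), and the sign of Flii turned with median centring (−0.15) and quantile normalisation (−0.084). Scin, Vil1, Vill and Avil, the relatives scinderin, villin, villin-like and advillin, lay below the filter, the highest mean over the 4 libraries being 0.576 TPM for Avil.

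Taken within each library, where the scaling of TPM cancels, Gsn supplied 5.8% and 5.06% of the gelsolin family RNA at low density and 63.7% and 40.8% at high density. The summed family RNA was 163 and 138 TPM at low density and 366 and 227 TPM at high density. Flii was the most abundant member of the family in the low density libraries, and Gsn exceeded it 2.51-fold and 1.13-fold in the high density libraries. Per 1000 TPM of Actb, Gsn stood at 3.57 and 2.96 TPM at low density and at 141 and 78.2 TPM at high density.

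**Figure D1:**
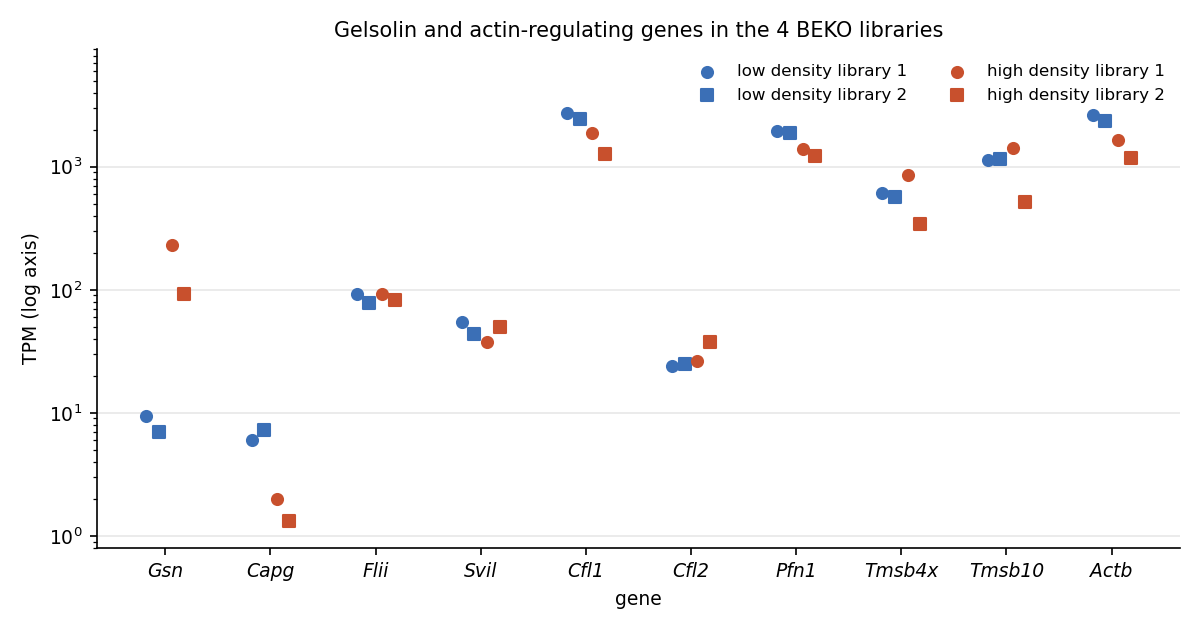
TPM of the 10 genes (log axis), 1 point per library, with circles for library 1 and squares for library 2 of each density. Gsn stands at 9.45 and 6.96 TPM in the low density libraries and at 233 and 92.6 TPM in the high density libraries, while the cofilin, profilin, thymosin and actin genes near the top differ far less.

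Actin itself was among the most abundant RNAs and lower at high density, without a call. Actb stood at 2651 and 2353 TPM in the low density libraries, at rank 28 and 36, and at 1655 and 1184 TPM in the high density libraries, at rank 56 and 65. The groups did not overlap. The means were 2502 ± 211 and 1420 ± 333 TPM, 1.76-fold lower at high density, with a log2 fold change of −0.83 ± 0.24 (SE). Actb was called lower with robust moderation (7.86% of all rows called), at a filter of 5 TPM (9.34%), with the replicate block (8.57%) and without high density library 1 (29.9%).

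The γ-actin gene Actg1, the other cytoplasmic actin, was called lower. It stood at 211 and 201 TPM at low density and at 110 and 67.3 TPM at high density, 2.33-fold lower, or −1.25 ± 0.27 on the log2 scale (SE, limma adjusted p = 0.0184, lower in both high density libraries). The call was lost without low density library 1 (0.122) or 2 (0.154), with median centring (0.0795), with quantile normalisation (0.0798) and without the trend (0.0509). Actg1 made up 7.38% and 7.88% of the 2 cytoplasmic actin RNAs at low density and 6.21% and 5.38% at high density. Over 1125 aligned bases, Actb and Actg1 were 88.6% identical in coding sequence, and the labels do not say how the authors assigned reads that fit both genes. The muscle actin genes Acta2, Actc1 and Actg2 had means over the 4 libraries of at most 0.151 TPM. Acta1 stood at 4.06 TPM in low density library 1, the library with the fibroblast markers, and at no more than 0.299 TPM in the others.

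The upstream window of Actg1 (chr11:120348486-120348745, minus strand, GRCm38.p6) is shown because actin genes are textbook targets of serum response factor, which binds the CArG box. Capitals mark the match, which begins 90 bases before the start.
Actg1: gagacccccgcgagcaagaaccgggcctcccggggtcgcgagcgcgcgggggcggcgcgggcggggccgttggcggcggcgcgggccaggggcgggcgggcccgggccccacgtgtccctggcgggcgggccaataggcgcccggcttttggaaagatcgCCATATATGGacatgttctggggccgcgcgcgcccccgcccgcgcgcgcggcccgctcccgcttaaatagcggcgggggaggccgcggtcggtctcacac
A CArG box, searched on both strands, was found in 1.5% of the 32851 windows, and in 0 of the 8 members with an entry. The RNA of the factor itself, Srf, differed by −0.14 ± 0.27 on the log2 scale (SE, limma adjusted p = 0.791).

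The cofilins differed from each other. Cfl1, the non-muscle cofilin, was the most abundant member in all 4 libraries, with 2722 and 2431 TPM at low density and 1893 and 1275 TPM at high density. The groups did not overlap, and the means were 2576 ± 206 and 1584 ± 438 TPM, with a log2 fold change of −0.73 ± 0.25 (SE) that was not called. Cfl2, the form best known from muscle, stood at 24.2 and 25.1 TPM at low density and at 26.2 and 37.3 TPM at high density, a log2 fold change of 0.33 ± 0.28 (SE), also not called. Its high density values lay above its low density values, only narrowly so in high density library 1, and most of the difference in means came from high density library 2. The third member of their family, Dstn, which encodes destrin, differed by 0.03 ± 0.23 on the log2 scale (SE, limma adjusted p = 0.951). Cfl1 made up 95% and 94.4% of the RNA of these 3 genes at low density and 92.3% and 89.4% at high density.

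The profilin Pfn1 stood at 1953 and 1878 TPM at low density and at 1383 and 1217 TPM at high density. The groups did not overlap, and the log2 fold change was −0.56 ± 0.22 (SE), without a call. Cfl1, Pfn1 and Actb thus stood lower in each high density library than in each low density library. Their order was Cfl1, Actb and Pfn1 except in high density library 2, where Pfn1 (1217 TPM) was above Actb (1184 TPM). Per Actb, Cfl1 stood at 1.03 and 1.03 at low density and at 1.14 and 1.08 at high density, and Pfn1 at 0.736 and 0.798 at low density and at 0.836 and 1.03 at high density.

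The thymosins followed another pattern, in which the high density libraries stood on either side of the low density pair. Tmsb10 stood at 1136 and 1155 TPM at low density, at 1414 TPM in high density library 1 and at 517 TPM in high density library 2. Tmsb4x stood at 616 and 569 TPM at low density, at 856 TPM in high density library 1 and at 344 TPM in high density library 2. For both genes 1 high density library was above and the other below the low density pair, so that neither separated the densities. The log2 fold changes were −0.42 ± 0.37 for Tmsb10 and −0.13 ± 0.35 (SE) for Tmsb4x. They were 0.30 and 0.53 without high density library 2, and −1.15 and −0.78 without high density library 1, where both were called, as were 29.9% of all tested rows. That fit has a single high density library, and its spread comes from the low density pair.

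The gap between the high density libraries was unusually wide for these genes. On the log2 scale high density library 2 stood 1.45 below library 1 for Tmsb10, a difference of −1.45, and the difference was −1.31 for Tmsb4x and −1.32 for Gsn. A larger difference in either direction was found in 2.17%, 3.25% and 3.14% of the tested rows, whose median was 0.27. Rows with a median annotated transcript length under 1000 bases had a median difference of 0.2, against 0.3 for longer rows. Both thymosins are among the shorter, as are Pfn1, Capg and Actb, which differed by −0.18, −0.36 and −0.48. Gsn has a median length of 1404 bases. The part of transcript length in the gap was not tested. Within the low density pair Tmsb10 differed by 0.02 and Tmsb4x by −0.12. The share of Tmsb4x in the summed thymosin RNA was 35.2% and 33% at low density and 37.7% and 39.9% at high density, a far smaller spread than that of either gene.

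**Figure D2:**
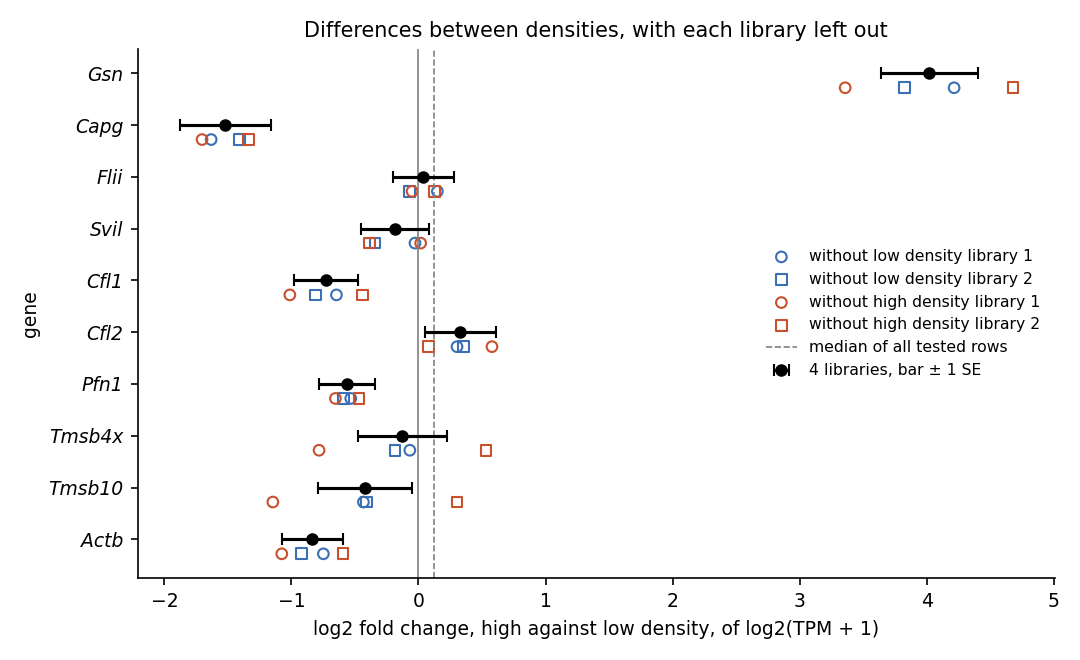
Log2 fold change of each of the 10 genes between the densities (black point, bar ± 1 SE), with open symbols for the value after each library is left out in turn; the dashed line marks the median of all tested rows, 0.12. Tmsb4x, Tmsb10, Flii and Svil change sign with the high density library that is left out, and the lowest value of Gsn is 3.36.

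The ratio of summed monomer-binding RNA to actin RNA was higher at high density, where the actin sum was lower. Actb and Actg1 summed to 2862 and 2554 TPM at low density and to 1765 and 1252 TPM at high density. Of the monomer-binding genes, Pfn1 was lower in both high density libraries and the thymosins stood on either side of the low density pair. The sum of Tmsb4x, Tmsb10 and Pfn1 was 1.29 and 1.41 times the sum of Actb and Actg1 in the low density libraries, and 2.07 and 1.66 times in the high density libraries. The group means were 1.35 ± 0.0818 and 1.86 ± 0.29 (SD, n = 2), and the groups did not overlap. The difference of 0.513 was 0.308 without high density library 1. Taken singly, Tmsb10 per Actb overlapped, with 0.428 and 0.491 in the low density libraries and 0.854 and 0.436 in the high density libraries, and Tmsb4x per Actb did not, with 0.232 and 0.242 against 0.517 and 0.290. With 2 libraries against 2, an exact permutation test cannot go below p = 0.333, so no test of such ratios is given. Together the 10 members made up 0.926% and 0.855% of the table's TPM at low density and 0.759% and 0.48% at high density.

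**Figure D3:**
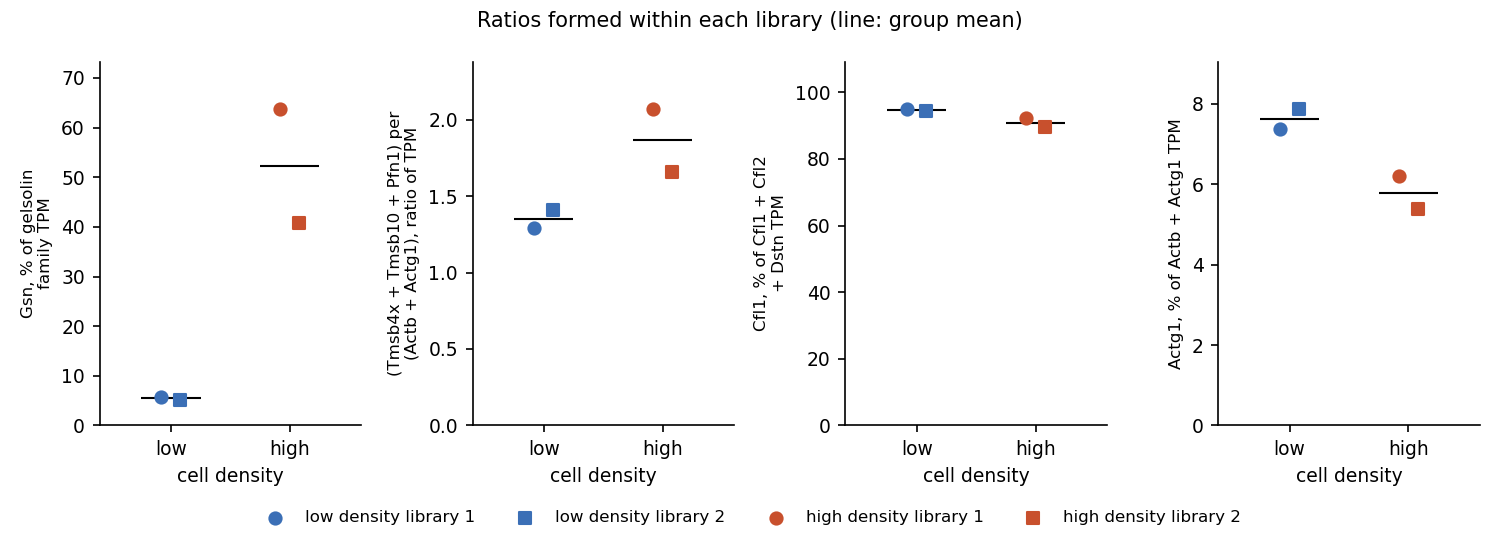
Quantities formed within each library against cell density, with 1 point per library and a line at the group mean: the share of Gsn in gelsolin family TPM, thymosin and profilin TPM per cytoplasmic actin TPM, the share of Cfl1 in cofilin and destrin TPM, and the share of Actg1 in cytoplasmic actin TPM. The Gsn share goes from 5.8% and 5.06% to 63.7% and 40.8%. The densities overlap in none of these panels, but do for Tmsb10 per Actb, which is not drawn. Of all tested rows, 54.7% had no overlap.

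Ordered by mean level at low density, the members ran Cfl1, Actb, Pfn1, Tmsb10, Tmsb4x, Flii, Svil, Cfl2, Gsn and Capg. The neighbours Cfl1 and Actb, at 2576 ± 206 and 2502 ± 211 TPM, and Gsn and Capg, at 8.21 ± 1.76 and 6.62 ± 0.823 TPM, had overlapping values there. At high density the order by mean was Cfl1, Actb, Pfn1, Tmsb10, Tmsb4x, Gsn, Flii, Svil, Cfl2 and Capg. Values of neighbours overlapped there from Cfl1 down to Tmsb4x, and also for Gsn and Flii, where the lower Gsn value was 92.6 TPM and the higher Flii value 92.8 TPM. Within each high density library Gsn was above Flii.

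Among the 10 members, limma called 1 higher, Gsn, and 1 lower, Capg, where 6.68% of all tested rows were called, 4.57% higher and 2.11% lower. The groups did not overlap in 6 members, 2 higher and 4 lower at high density, where 54.7% of all tested rows had no overlap, 34.7% higher and 20.0% lower. The median log2 fold change of the members was −0.3, and 8 of them lay below the median of all rows. As the list was made with these libraries' results known, nothing is read from these counts. With 1 library left out, its density has a single library, which is assumed to vary like the other density's pair. Gsn was called in each of these fits, from which nothing further is read, and in which 2.93%, 2.13%, 29.9% and 22.1% of all tested rows were called, for low density libraries 1 and 2 and high density libraries 1 and 2. The Capg call was lost when either low density library was left out and with median centring, which called 2.87% of the rows. In all, 7 members were called without high density library 1. At a filter of 5 TPM Capg, with a mean of 4.14 TPM over the 4 libraries, was not tested. With no filter on low values limma called 0 members, 2 of which had an unadjusted p under 0.05, and 0.0% of the 25630 rows.

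Near-identical copies can blur such counts. Among annotated mouse transcripts, sequences at least 90% identical over at least 100 bases to a member's coding sequence came from 5 other genes for Cfl1, 4 of them with pseudogene transcripts, from 6 for Tmsb10, 5 of them with pseudogene transcripts, and from 3 for Actb. For Gsn, Capg, Flii, Svil, Cfl2, Pfn1 and Tmsb4x no other gene was found by this search. The values of Cfl1, Tmsb10 and Actb may therefore be less certain, but how reads were assigned to such copies was not examined.

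The wider actin machinery was read from 10 lists ordered by role, with 123 genes listed, of which 122 were rows of the table and 80 passed the filter. In these lists 3 genes were called higher and 1, Actg1, lower, which is 5% of the 80 against 6.68% of all tested rows, and the median log2 fold change was 0.09, against 0.12 for all rows. At an unadjusted p under 0.05 there were 18 of the 80, and 2569 of all 10936 rows. The share called in these lists was thus near that of all rows, and the genes below are named as single genes.

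Among regulators that start new filaments, 2 genes were called. Abi2, a subunit of the WAVE complex that activates Arp2/3, stood at 14.1 and 12.5 TPM at low density and at 32 and 34 TPM at high density, 2.48-fold higher (log2 fold change 1.25 ± 0.27 SE, limma adjusted p = 0.0192, higher in both high density libraries). It was the 1 called gene of 12 tested nucleation promoting factors, whose median was 0.44, and the most abundant of them, Brk1, differed by 0.0043 ± 0.22 on the log2 scale (SE, limma adjusted p = 0.994). Fmnl3, a formin that elongates unbranched filaments, stood at 21.8 and 18.8 TPM at low density and at 41.1 and 65.3 TPM at high density, 2.62-fold higher (limma adjusted p = 0.0216). It was the 1 called of 7 tested formins, with a median of 0.44, and Fmnl1, the most abundant, differed by 0.52 ± 0.25 on the log2 scale (SE, limma adjusted p = 0.232). Of 9 tested genes of the Arp2/3 complex, which branches filaments, limma called 0, and 0 had an unadjusted p under 0.05. Its most abundant gene, Arpc2, went from 476 ± 25.3 to 606 ± 4.89 TPM (limma adjusted p = 0.366).

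The remaining called gene encodes a transcription factor. Elk4, an ETS factor that binds DNA together with serum response factor, stood at 39.9 and 32.8 TPM at low density and at 93.0 and 72 TPM at high density, 2.27-fold higher (limma adjusted p = 0.0226). It was the 1 called of 6 tested genes of serum response factor and its partners.

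Abi2, Fmnl3, Elk4 and Actg1 all lost their calls when low density library 1 or 2 was left out. The limma adjusted p of these 4 genes was then 0.122 to 0.308 and 0.154 to 0.509, and 0.193 to 0.448 with no filter on low values. With median centring Abi2 and Fmnl3 were called, and Elk4 (limma adjusted p = 0.0934) was not. The same held with quantile normalisation, where Elk4 had a limma adjusted p of 0.0798.

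No gene for severing, capping or crosslinking was called among the members' partners. Of 18 tested cofilin relatives, cofactors and kinases limma called 0, with 5 at an unadjusted p under 0.05 and a median of 0.08, and Coro1a, the coronin of blood cells and the most abundant, went from 520 ± 61.9 to 574 ± 99.6 TPM (limma adjusted p = 0.764). Of 8 tested capping genes limma called 0, with 0 at an unadjusted p under 0.05, and Capzb, the β subunit of capping protein, went from 307 ± 9.11 to 278 ± 26.9 TPM (limma adjusted p = 0.736). Of 18 bundling, crosslinking and side-binding genes limma called 0, with 3 at an unadjusted p under 0.05, and Ezr, which ties filaments to the membrane, went from 490 ± 108 to 475 ± 27.8 TPM (limma adjusted p = 0.958). The other profilins and thymosins had 0 of 7 rows above the filter, and Pfn2, the highest, stood at 1.91 TPM in low density library 1 and at no more than 0.0388 TPM elsewhere.

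**Figure D4:**
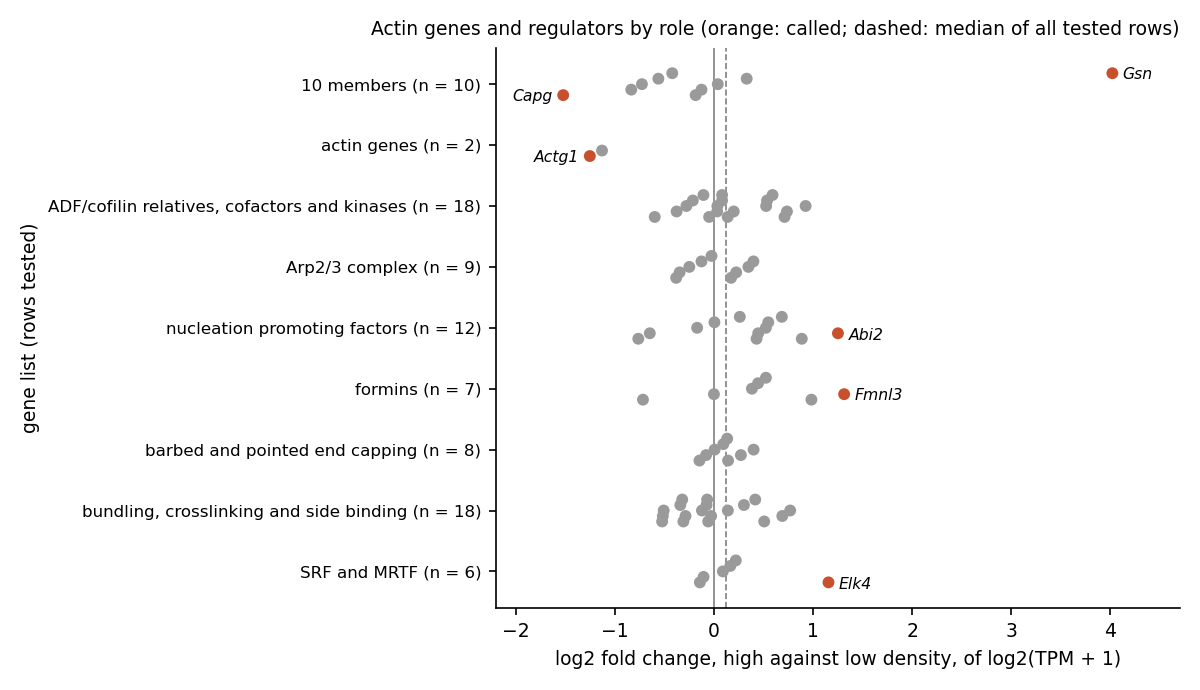
Log2 fold change between the densities of the 10 members and of 80 further actin genes and regulators, 1 point per gene and 1 line per role, with called genes in orange and the median of all tested rows, 0.12, as a dashed line. Gsn at 4.02 stands far to the right of all other points, and Arp2/3, capping and crosslinking genes stand between −0.52 and 0.77.

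The rows whose pattern over the 4 libraries was most like that of Gsn were found by the Euclidean distance between log2(TPM + 1) values centred on each row's mean. The nearest were Ltb, a lymphotoxin subunit, at a distance of 0.343, Slc2a1, a glucose transporter, at 0.407, Bhlhe40, a transcriptional repressor, at 0.439, Pfkp, a phosphofructokinase, at 0.454, and Ero1l, an oxidase of the endoplasmic reticulum, at 0.468. Predicted gene models, names ending in Rik, small RNA rows and rows with only an Ensembl identifier were left out when these rows were picked. The median distance of the 10935 other rows, with none left out, was 4.09, and 11 of them lay within 1. In Ltb, Slc2a1, Bhlhe40, Pfkp and Ero1l high density library 1 was above high density library 2, as for Gsn, with 113 and 54.3 TPM for Ltb and 947 and 257 TPM for Ero1l. These rows were picked by likeness over the same values, so the shared order follows from the choice. Of the members, the one nearest to Gsn was Cfl2, at 3.92. With 4 libraries such likeness is a description.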

How the data were processed

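RNA-seq of 4 libraries was used. The authors deposited TPM, 1 value per gene row and library, each library summing to 1000000. The aligner and counting method are not stated in the labels. Per the submitters' processing notes, the build was mm9 and DESeq2 1.2.10 was among the tools, with no role stated. Rows whose mean reached 1 TPM were fitted as log2(TPM + 1) with limma 3.58.1 (R 4.3.3), with a trend and 2 residual and 9.53 prior degrees of freedom, two-sided, and p-values were adjusted by Benjamini-Hochberg. The fit was tested on simulated data. Coding sequences were searched against GENCODE transcripts with blastn 2.17.0. The members, lists and tests were chosen with earlier results of these data known. Named genes are the members, up to 4 called genes and the most abundant gene per role list, and the 5 rows nearest to Gsn. Predicted models, small RNA rows and Ensembl identifiers were left out of those 5. Srf, Dstn, Acta1 and Pfn2 were added after their values were seen. Alternatives covered pseudocount, filter, centring, rescaling, moderation, replicate block and each library left out. A further list of regulators is not reported here.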

Additional observations from a re-analysis of the deposited data

How the results depend on the processing

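With 2 libraries a group and unknown depth, single libraries set many values, and calls depend on the scaling of TPM. Of all rows, 731 were called, 500 of them higher and 231 lower. Testing all 25630 rows unfiltered, limma gave 0 calls over the table, 0 among members and 0 among listed regulators, where 2565, 2 and 24 had an unadjusted p under 0.05. Median centring called 314 rows (51% of them higher), 1 member and 2 regulators, and quantile normalisation 360 rows (60% higher) and 2 regulators. Leaving out 1 library gave 233 to 3270 rows, 1 to 7 members and 0 to 23 regulators. It gave differences of 35.4 to 58.3 percentage points in the Gsn share and of 0.308 to 0.718 in the ratio of monomer-binding to actin RNA.

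Among the members and the regulators that were called or most abundant in their list, signs changed for 4 members and 3 regulators. The other listed regulators, such as Srf and Dstn, were not followed here. With median centring the log2 fold change was −0.15 for Flii, −0.049 for Coro1a and −0.18 for Brk1. With quantile normalisation it was −0.084 for Flii and 0.12 for Ezr, and rescaled without ribosomal protein genes it was −0.0056 for Brk1. With 1 library left out it ran from −0.072 to 0.15 for Flii, −0.39 to 0.017 for Svil, −0.78 to 0.53 for Tmsb4x and −1.15 to 0.30 for Tmsb10. It ran from −0.040 to 0.32 for Coro1a, −0.095 to 0.10 for Brk1 and −0.26 to 0.20 for Ezr. The causes were not tested.

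The labels do not say whether libraries of the same number belong together. Deviations of same-numbered libraries correlated at r = 0.042 across 10936 rows, but only 2 pairs cannot decide whether they do. The fit with a replicate block called 937 rows, 3 members and 4 regulators.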
